A study of Homo sapiens with 6 samples.

Results

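The cytosolic ribosome is built from ribosomal RNA and a set of ribosomal proteins, each encoded by its own gene or pair of genes. The genes described here were those with an Ensembl 94 symbol of the form RPL or RPS followed by a number, with an optional A, X or L at the end, together with RPLP0, RPLP1, RPLP2 and RPSA. The rule found 81 of the 58735 genes listed, 32 of the 40S subunit and 49 of the 60S subunit. It used names only and no measured value. Of the 81 genes, 79 passed the filter on low counts, out of 14338 genes tested, and RPL3L and RPL10L did not. RNA-Seq was performed on BT549, a long-established breast cancer line of the basal-like subtype, after 48 h with DMSO (3 libraries, A to C) or with AS1842856 (3 libraries, A to C), a small molecule that binds FOXO1. All cells were the same unmodified line, and DMSO was the vehicle control. The sample labels give a dose of 200 nM and the methods of the study a higher concentration, which was not resolved here. The labels do not say that libraries of a group came from separate cultures, so p-values measure the spread between these libraries, although the study calls them biological replicates.

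The small 40S subunit reads the mRNA and the large 60S subunit joins the amino acids and releases the chain through its exit tunnel. Most ribosomal protein mRNAs are TOP mRNAs, which begin with a C and a run of pyrimidines, and their translation is controlled through mTORC1 and the RNA-binding protein LARP1. Cells keep the proteins in balance, and proteins that are not built into ribosomes are degraded or, as with RPL5 and RPL11, can bind the ubiquitin ligase MDM2.

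The sequence around the transcription start is shown for a few members because the run of pyrimidines there is the feature that these genes are known to share. Each line gives 30 bases of the gene's own strand, the 15 before and the 15 from the start in RefSeq (GRCh38.p14). Capitals mark the longest unbroken run of C and T within those 30 bases, and the run of RPL39 reaches the last of them. RPL22, RPL12 and RPS16 were among the largest increases, RPS6 and RPL13A are abundant members, RPL39 and RPS26 were near the low end of the core genes, and RPS27 is shown above its paralog RPS27L.
RPL22 (chr1:6199581-6199610, minus strand): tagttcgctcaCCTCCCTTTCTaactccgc
RPL12 (chr9:127451392-127451421, minus strand): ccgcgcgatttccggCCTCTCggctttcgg
RPS16 (chr19:39435935-39435964, minus strand): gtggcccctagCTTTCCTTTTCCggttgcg
RPS6 (chr9:19380222-19380251, minus strand): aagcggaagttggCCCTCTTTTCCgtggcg
RPL13A (chr19:49487593-49487622, plus strand): cgacaaaaCCTCCTCCTTTTCCaagcggct
RPL39 (chrX:119791616-119791645, minus strand): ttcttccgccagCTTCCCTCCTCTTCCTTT
RPS26 (chr12:56041903-56041932, plus strand): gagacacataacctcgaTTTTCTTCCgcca
RPS27 (chr1:153990747-153990776, plus strand): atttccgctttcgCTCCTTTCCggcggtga
RPS27L (chr15:63157463-63157492, minus strand): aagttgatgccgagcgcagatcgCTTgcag

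A run of at least 8 C or T was present in the windows of 51 of the 64 members with a RefSeq entry (79.7%), against 2641 of 14832 other coding genes (17.8%). The median longest run was 11 bases in the members and 5 bases in the other coding genes. Another reading, a C at the first base followed by at least 4 C or T, was met by 46 of 64 members (71.9%) and by 6.07% of the other coding genes. It is not a subset of the first, since RPL12 met it without a run of 8 and RPS26 had the run without meeting it. Where RefSeq lists several starts, the gene was counted if any of them qualified. With the first listed start alone the shares were 73.4% and 13.1%. RPL12, with 6 bases, and RPS27L, with 3 bases, had no run of 8 in these windows. Only the gene's strand was searched, and a run of letters is a description and not evidence of control.

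The libraries held between 15289500 and 22981832 counts, with TMM scaling factors between 0.995 and 1.01. Of all genes tested, 56.0% were called, 27.6% higher and 28.4% lower with AS1842856, around a median log2 fold change of 0.003 (quartiles -0.29 and 0.25). The mesenchymal markers VIM, CD44, CAV1, AXL, SPARC and FOSL1 were present, as in this line, and all 6 were lower with AS1842856. Of 7 luminal, epithelial and leukocyte markers, ESR1, CDH1, PGR and EPCAM did not pass the filter and FOXA1 and PTPRC stayed under 5 CPM, whereas GATA3 went against the list at 50.9 CPM (SD 2.47, n = 3) with DMSO and 61.7 CPM (SD 4.23, n = 3) with AS1842856. Levels are relative to each library, and the amount of RNA per cell was not measured. In bulk RNA a change in the mix of cells and a change in RNA per cell cannot be told apart.

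Ribosomal protein mRNAs were higher with AS1842856 almost throughout the set, by a small and similar amount. By edgeR's quasi-likelihood test with Benjamini-Hochberg adjustment over all genes, 75 of the 79 members tested (94.9%) were called higher, against 27.6% of all genes tested. Only RPS27L and RPL39L were called lower, against 28.4% of all genes, and RPS26 and RPS29 were not called. The median log2 fold change of the 79 members was 0.28 (quartiles 0.23 and 0.36). For 74 members every AS1842856 library lay above every DMSO library, which 29.5% of all genes did, and for 2 members every one lay below, against 30.3%. Since members share libraries, they are not independent replicates, and these counts were given no p-value.

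**Figure D1:**
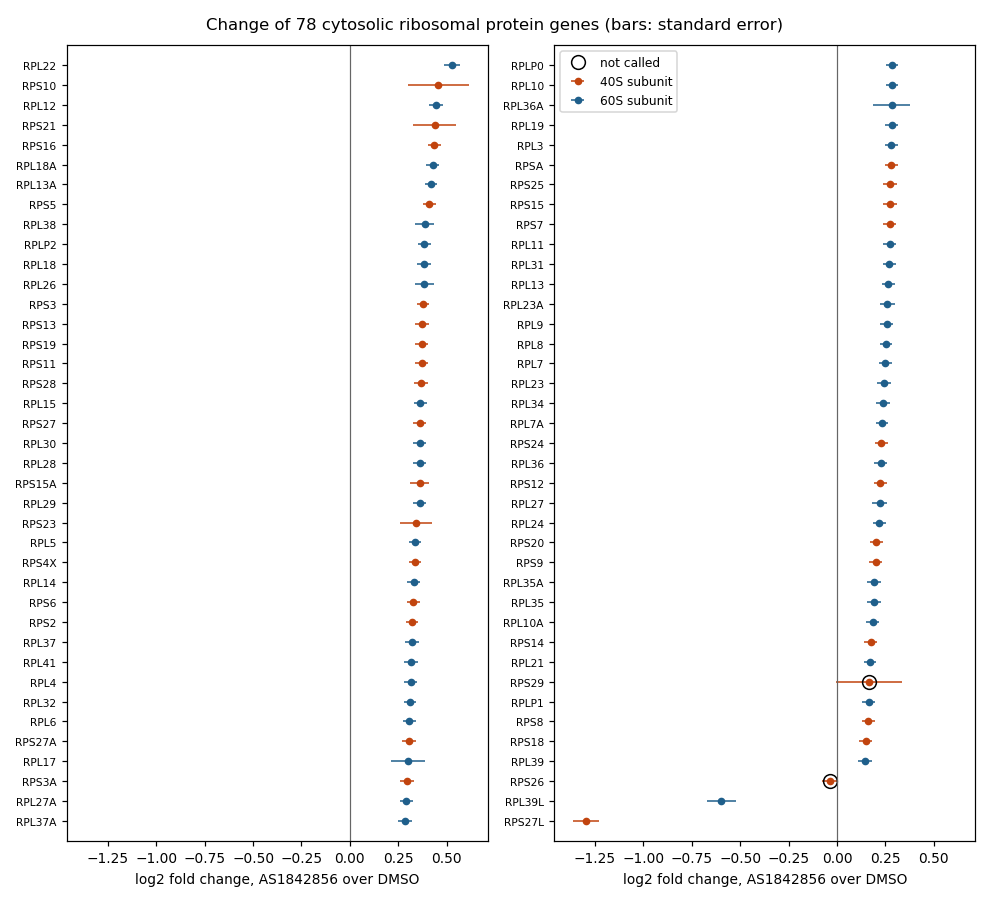
Log2 fold change (x axis, AS1842856 over DMSO, n = 3 libraries per group) of the members tested, with 1 left out (y axis, in order of change), with bars for the standard error and open rings for members not called. Nearly all members sit in a narrow band to the right of 0, while RPS26 lies at -0.04, RPL39L at -0.60 and RPS27L at -1.29.

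Expressed as a share of the library, counts on the 81 genes made up 5.43%, 5.19% and 5.17% of the DMSO libraries A, B and C. In the AS1842856 libraries they made up 6.31%, 6.46% and 6.47%. The groups did not overlap, and the mean rose from 5.26% (SD 0.142, n = 3) to 6.41% (SD 0.091, n = 3), a ratio of 1.22. Wilson 95% intervals of single libraries, such as 5.42% to 5.44% for DMSO library A, were far narrower than the spread between replicates and cover counting error only. The highest DMSO share, that of library A, was the closest to the AS1842856 libraries. Relative to the DMSO mean, the median member stood at 0.05, -0.03 and -0.03 on the log2 scale in the DMSO libraries and at 0.26, 0.30 and 0.32 in the AS1842856 libraries.

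**Figure D2:**
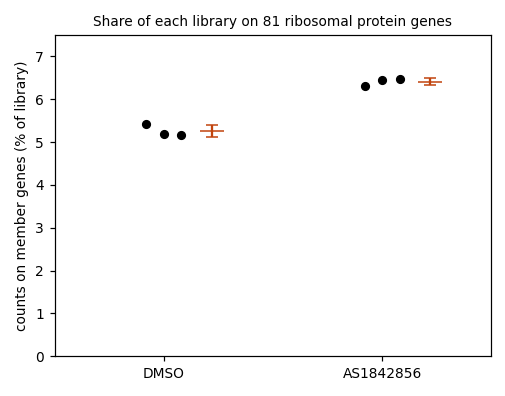
Percent of each library's counts on the 81 ribosomal protein genes (y axis, from 0) in the 3 DMSO and the 3 AS1842856 libraries, with points for libraries A, B and C from left to right and crosses for the mean with its SD. The AS1842856 libraries lie between 6.31% and 6.47% and the DMSO libraries between 5.17% and 5.43%.

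The changes fell in a narrow range once the paralogs were set aside. RPL3L, RPL10L, RPL39L and RPS27L encode paralogs of core subunits with expression known to differ between tissues. Among the other 77 members, called core members here, log2 fold changes ran from -0.04 to 0.53 with an SD of 0.091 and a median fold of 1.22. The median standard error of a single gene was 0.034, so the members differed among themselves by more than their fitted error. Of these 77, 75 were called higher with a log2 fold change between 0.1 and 0.6, as were 2793 of all genes tested (19.5%). The 2374 other genes with a mean of at least 100 CPM had a median log2 fold change of 0.03, and 41.9% of them were called higher. The change in a core member had no clear relation to its level, with a Spearman rho of -0.103 between log2 fold change and mean FPKM across the 77 genes, which share the same 6 libraries.

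**Figure D3:**
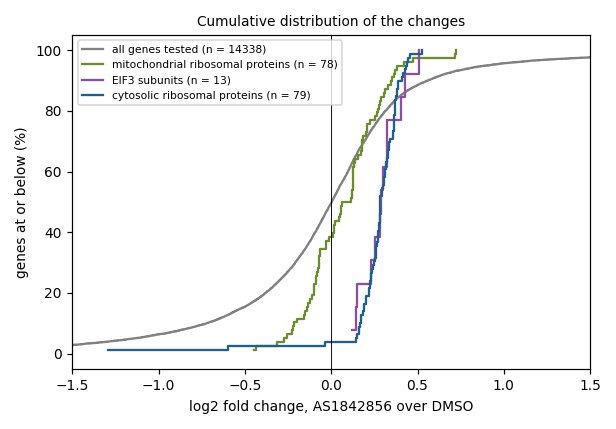
Cumulative percent of genes (y axis) at or below each log2 fold change (x axis, AS1842856 over DMSO, limited at both ends) for all 14338 genes tested, the 79 cytosolic ribosomal protein genes, 78 mitochondrial ribosomal protein genes and 13 EIF3 subunits. The cytosolic ribosomal protein curve rises steeply around its median of 0.28, whereas the mitochondrial one is broader with a median of 0.09 and that of all genes is centred at 0.003.

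In the 40S subunit, 29 of 32 members rose (90.6%), RPS27L fell, and RPS26 and RPS29 were not called, with a median log2 fold change of 0.30. Over both subunits 94.9% of members tested were called higher, against 27.6% of all genes tested. RPS6, the subunit protein phosphorylated by S6 kinase, stood at 1902, 1813 and 1687 CPM with DMSO and at 2195, 2318 and 2267 CPM with AS1842856. The groups did not overlap, and RPS6 rose by 0.33 (SE 0.03, adjusted p = 8.78e-19). RPS3, which lines the mRNA entry channel and also acts in DNA repair, rose from 1114, 1026 and 1036 CPM to 1339.7, 1376 and 1412 CPM, a log2 fold change of 0.38 (SE 0.03). RPSA, known also as a laminin receptor, rose from 1304, 1310.1 and 1292 CPM to 1565, 1578 and 1603 CPM, or by 0.28 (SE 0.03). Both were separate between groups in all libraries. RPS4X, encoded on the X chromosome, and RPS27A, made as a fusion with ubiquitin, rose by 0.34 (SE 0.03) and 0.30 (SE 0.03).

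The largest increases in the 40S subunit were those of RPS10, RPS21 and RPS16. RPS16 rose from 679.9, 627 and 627 CPM to 853, 898 and 865 CPM, or by 0.44 (SE 0.03, adjusted p = 1.58e-28). RPS21 stood at 361, 282 and 293 CPM with DMSO and at 438, 412 and 419.7 CPM with AS1842856, with a larger standard error of 0.11 beside its change of 0.44 (adjusted p = 0.0281). Library A was the highest of both groups for RPS21. The edgeR call of RPS21 was lost without any one of 4 libraries (adjusted p = 0.094 without DMSO library C, 0.0853, 0.0718 and 0.0816 without AS1842856 libraries A, B and C). With all libraries, RPS21 was also called by DESeq2 (adjusted p = 0.000786). RPS10 was scarce, at 4.19, 4.88 and 5.22 CPM with DMSO and at 6.54, 5.69 and 7.402 CPM with AS1842856. It rose by 0.46 (SE 0.16, adjusted p = 0.00884), but was not called by DESeq2 (adjusted p = 0.0708) or in edgeR without DMSO library A (0.075) or AS1842856 library C (0.0806). RPS23, which lies at the decoding centre, rose by 0.34 (SE 0.08), a call lost without DMSO library C (adjusted p = 0.0893).

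A pair of 40S members departed from the band without being called. RPS26, which lies by the mRNA exit channel, measured 234, 200.1 and 205 CPM with DMSO and 208, 207 and 208 CPM with AS1842856. Its groups overlapped, with DMSO library A above all others, and the log2 fold change was -0.04 (SE 0.04, adjusted p = 0.416). RPS29 measured 256, 193 and 204 CPM with DMSO and 286, 228 and 221 CPM with AS1842856. Library A was the highest of both groups, and the change of 0.16 had a standard error of 0.17 (adjusted p = 0.477). RPS18 was called higher by 0.15 (SE 0.03, adjusted p = 4.52e-05) although its groups overlapped, with DMSO library A at 1329.7 CPM above AS1842856 library A at 1315 CPM. RPS18 was not called by limma on log2(FPKM + 1) with all genes above 0 (adjusted p = 0.0865).

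In the 60S subunit, 46 of 47 members tested rose (97.9%, against 94.9% over both subunits) and RPL39L fell, with a median log2 fold change of 0.28. RPL22, an RNA-binding protein at the rim of the exit tunnel that is not required for protein synthesis in general, had the largest increase of the set. It stood at 119, 127 and 126 CPM with DMSO and at 173, 175 and 188 CPM with AS1842856. All AS1842856 libraries were far above all DMSO libraries, and RPL22 rose 1.44-fold (log2 fold change 0.53, SE 0.04, adjusted p = 1.04e-28). RPL22 lies on chr1:6185020-6209389 (GRCh38, minus strand), where 5.2% of its exon bases overlap RNF207 on the opposite strand, and RNF207 had 1896 counts in all 6 libraries against 17137 for RPL22. RPL13A, which can also silence translation outside the ribosome, rose from 1610.1, 1488 and 1544 CPM to 1984, 2101 and 2117 CPM, or by 0.42 (SE 0.03).

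The mRNAs of all 4 proteins of the P stalk and its base rose, as did 94.9% of all members tested. The stalk is the lever that brings elongation factors to the ribosome, and is made of RPLP0 carrying pairs of RPLP1 and RPLP2 on a base formed with RPL12. RPL12 stood at 486, 469 and 481 CPM with DMSO and at 625, 668 and 661 CPM with AS1842856, a log2 fold change of 0.45 (SE 0.03, adjusted p = 7.00e-29). RPLP2 rose from 387, 366 and 387 CPM to 493, 500.3 and 495 CPM, or by 0.39 (SE 0.03). RPLP0 rose by 0.28 (SE 0.03) and RPLP1 by 0.16 (SE 0.03, adjusted p = 9.36e-06), the smallest change of the 4. The mRNAs of both proteins of the 5S ribonucleoprotein, which bind MDM2, rose as well. RPL5 went from 1177, 1138 and 1194 CPM to 1487, 1462 and 1483 CPM (0.34, SE 0.03), and RPL11 from 948, 871 and 924 CPM to 1097, 1134 and 1082 CPM (0.27, SE 0.03), without overlap in either.

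The groups of members below stand beside 94.9% of all members tested and 27.6% of all genes tested called higher. They were not tested against the other members. Of 9 members known to bind MDM2, 8 rose (88.9%) and RPS27L fell, with a median log2 fold change of 0.27. Beside RPL5, RPL11 and RPS3 these were RPL23 (0.24, SE 0.03), RPL26 (0.38, SE 0.05), RPS7 (0.27, SE 0.03), RPS14 (0.17, SE 0.03) and RPS27A. Of 17 members mutated in Diamond-Blackfan anaemia, a failure of red cell production, 15 rose (88.2%) and RPS26 and RPS29 were not called. RPS19, the member most often mutated in that disease, rose from 670.1, 637 and 626 CPM to 819.7, 831 and 849.8 CPM, or by 0.37 (SE 0.03). All 8 members listed at the exit tunnel and its rim rose, from 0.14 for RPL39 to 0.53 for RPL22. The 28 members with a snoRNA gene inside the locus all rose, with a median of 0.30. Of the 51 tested members without one, 47 rose (92.2%), with a median of 0.28.

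The members that fell were both paralogs of a core subunit whose core partner rose. RPS27L, a close copy of RPS27, stood at 54.8, 55.8 and 53.8 CPM with DMSO and at 23.9, 21.9 and 21.4 CPM with AS1842856. Its level fell to 0.408 of that with DMSO (log2 fold change -1.29, SE 0.07, adjusted p = 1.04e-49). RPS27 rose over the same libraries from 494, 489 and 486 CPM to 612, 638 and 638 CPM, or by 0.36 (SE 0.03). The log2 ratio of RPS27L to RPS27 counts within a library was -3.16 (SD 0.025, n = 3) with DMSO and -4.81 (SD 0.118, n = 3) with AS1842856. The difference was -1.66, and all DMSO libraries lay above all AS1842856 libraries (exact two-sided permutation test, p = 0.1, the smallest p that 3 against 3 libraries allow).

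RPL39L, known for high expression in testis and in some cancer cells, stood at 38.3, 34.7 and 34.3 CPM with DMSO and at 25.3, 23.6 and 22.3 CPM with AS1842856. It fell to 0.661 of its DMSO level (log2 fold change -0.60, SE 0.07, adjusted p = 2.04e-13), without overlap. RPL39, the small protein of the exit tunnel wall that it can replace, measured 421, 396 and 372 CPM with DMSO and 439.96, 448 and 425 CPM with AS1842856, and rose by 0.14 (SE 0.04, adjusted p = 0.000192). RPL39 was not called by limma on log2(FPKM + 1) with all genes above 0 (adjusted p = 0.0802). The log2 ratio of RPL39L to RPL39 counts went from -3.47 (SD 0.038, n = 3) to -4.21 (SD 0.074, n = 3), a difference of -0.74 (exact two-sided permutation test, p = 0.1). Close copies can share reads, and how reads that match several places were counted is not given in the sources used here.

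**Figure D4:**
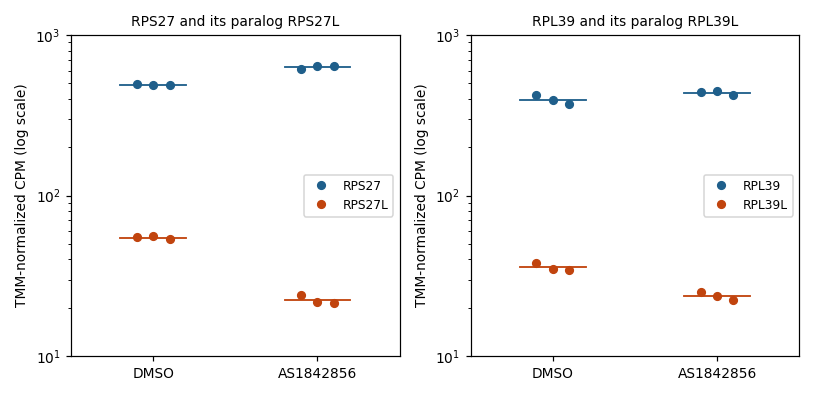
TMM-normalized CPM (y axis, log scale) of RPS27 and RPS27L (left) and of RPL39 and RPL39L (right) in the 3 DMSO and 3 AS1842856 libraries, with points for libraries and lines for group means. RPS27L fell from between 53.8 and 55.8 CPM to between 21.4 and 23.9 CPM while RPS27 rose, and RPL39L fell while RPL39 differed less.

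The remaining paralogs were at or near the limit of detection. RPL3L, the form of RPL3 used in heart and skeletal muscle, had 0, 3 and 2 counts in the DMSO libraries and 3, 6 and 3 counts in the AS1842856 libraries. RPL10L, a copy of RPL10 without introns that is used in male germ cells, had 0 counts in all 6 libraries, and 3 counts would stand for between 0.131 and 0.196 CPM per library. EEF1G, an elongation factor gene that all cells use, was also listed at 0 in all 6 libraries, so a 0 in this table does not by itself show that an mRNA was absent. Their core partners were abundant and rose by the same amount, RPL3 by 0.28 (SE 0.03) and RPL10 by 0.28 (SE 0.03). RPL3, at the peptidyl transferase centre, went from 1350.1, 1301 and 1353 CPM to 1602, 1612 and 1652 CPM.

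Levels between genes were compared by the deposited FPKM, which divide by gene length. The highest mean FPKM over all 6 libraries were those of RPL8 (1470.6), RPS12 (909) and RPL13A (758), and the lowest among members tested were those of RPS10 (2.38), RPL36A (4.17) and RPS27L (4.20). The core median was 193.6 FPKM, 45 of 77 core members lay within 2-fold of it, and the highest and the lowest core member differed 617-fold. RPL8, which lies near the peptidyl transferase centre, had 1341 FPKM (SD 78.4, n = 3) with DMSO and 1599.9 FPKM (SD 30.5, n = 3) with AS1842856, and rose by 0.25 (SE 0.03). RPS12, known to sense imbalance between ribosomal proteins in flies, had 839 FPKM (SD 33.5, n = 3) and 979 FPKM (SD 8.66, n = 3), and rose by 0.22 (SE 0.03). The order of levels was nearly the same in both groups, with a Spearman rho of 0.994 between group mean FPKM across 77 core members in the same 6 libraries.

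The FPKM scale depends on the length used. For the 79 members tested the length implied by counts and FPKM was 1.005 times the summed length of all annotated exons in GENCODE 29. The summed length can exceed that of any single mRNA, and it ranged from 767 bases for RPS12 to 9845 bases for RPS29. RPS27L (9127 bases) therefore had a log2 ratio to RPS27 (1035 bases) of -6.30 by FPKM with DMSO, against -3.16 by counts. The difference in this ratio between groups was -1.66 by both. The rank of RPS12 by FPKM, above RPS6 (2714 bases), also depends on this length. By counts RPS12 was lower, with means of 647 CPM (DMSO) and 756 CPM (AS1842856), against 1801 and 2260 CPM for RPS6.

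**Figure D5:**
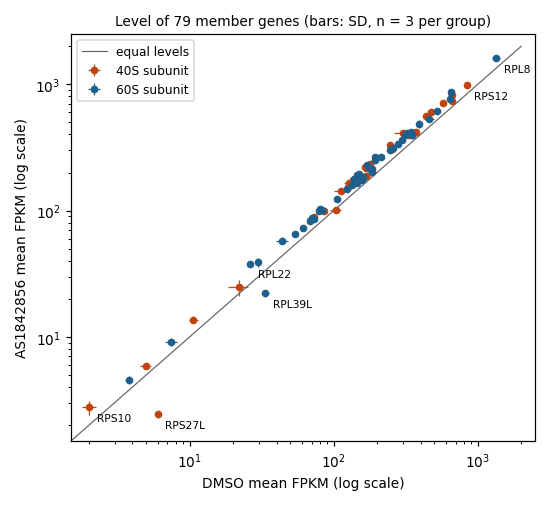
Mean FPKM with AS1842856 (y axis, log scale) against mean FPKM with DMSO (x axis, log scale) for the 79 members tested, with bars for the SD (n = 3 per group) and a line of equal levels. Nearly all members lie just above the line, from RPS10 at the lower left to RPL8 at the upper right, and RPS27L and RPL39L lie below it.

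Several scarce core members share annotated exons with another locus on the same strand, and so do some abundant ones. Among the abundant ones, RPS2 (DMSO mean 1391 CPM) shares 25.6% of its exon bases and RPL36 (333 CPM) 17.6%. RPS10 shares 39.4% of its exon bases with the readthrough locus RPS10-NUDT3, RPL17 24.8% with RPL17-C18orf32 and RPL36A 8.4% with RPL36A-HNRNPH2, and each of these partners had 0 or 1 count over all 6 libraries. The part of this overlap in the low levels was not tested. Other members overlap a gene on the opposite strand, whose reads cannot be told apart if counting ignored strand. The widest such overlap with a coding gene among the members was that of RPL10 with DNASE1L1 (34.2% of exon bases), where DNASE1L1 had 398 counts over 6 libraries against 208638 for RPL10. RPL17, at the rim of the exit tunnel, rose from 16.3, 19.7 and 19.1 CPM to 21.96, 21.2 and 24.5 CPM (0.30, SE 0.09), and RPL36A from 14.5, 14.5 and 15.98 CPM to 17.9, 17.2 and 19.7 CPM (0.28, SE 0.10). RPL17 was not called without DMSO library A (adjusted p = 0.0588) or by limma on log2(FPKM + 1) with all genes above 0 (0.0557). RPL36A was not called by DESeq2 (0.0502) or without AS1842856 library C (0.0691). RPL27, a more abundant member, rose by 0.22 (SE 0.04) and was not called by that same limma setting (adjusted p = 0.0506).

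Processed copies of these genes are scattered over the genome. Of 1132 pseudogenes named after a member, 65 passed the filter. Of these 65, 17 (26.2%) were called higher, near the 27.6% of all genes tested, and 3 were called lower, against 28.4% of all genes. The median change of the 65 was 0.29 on the log2 scale. Together the 1132 pseudogenes held 0.057% (SD 0.003, n = 3) of the counts with DMSO and 0.072% (SD 0.003, n = 3) with AS1842856. With each member's counts summed with those of its pseudogenes, 75 members were again called higher and 2 lower.

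The median change was close in members with and without the pyrimidine run, and the difference was not tested. The 51 members with a run of at least 8 had a median log2 fold change of 0.28, with 50 called higher, 0 called lower and RPS26 not called. The 12 tested members with an entry and no run had a median of 0.29, with 10 called higher (83.3%, against 98.0% with a run), RPS27L called lower and RPS29 not called, and they spanned -1.29 to 0.45. RPL12, with the run of 6 shown above, was among the largest increases. RPL39, with a run of 18 that reached the end of its window, was among the smallest. The split depends on the reading of the start. RPL12, RPL36 and RPS3A, counted here as having no run, begin with a C followed by at least 4 C or T. RPS26, counted here as having a run, does not. Among other coding genes, the 1745 with a run had a median of 0.02 (577 higher, 535 lower) and the 7944 without had a median of -0.02 (2256 higher, 2498 lower).

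Other parts of the translation machinery moved unequally. Of all genes tested, 27.6% were called higher and 28.4% lower. The mRNAs of all 13 subunits of EIF3, the factor that prepares the 40S subunit for initiation, rose, with a median of 0.29. EIF3L rose most, from 191 CPM (SD 4.11, n = 3) to 272 CPM (SD 2.31, n = 3), or by 0.51 (SE 0.04). Of 5 elongation factor genes tested, 4 rose. EEF2, which moves the ribosome along the mRNA, rose by 0.63 (SE 0.03), from 3123 CPM (SD 111, n = 3) to 4819 CPM (SD 27.2, n = 3), and EIF5A was not called. Of 7 genes for ribosomal proteins or close copies with names outside the rule, 3 rose, among them RACK1 (0.42, SE 0.03) and FAU (0.37, SE 0.04). RPL7L1 fell by 0.09 (SE 0.03), and the copies RPL22L1, RPL26L1 and RPL36AL were not called.

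Of 11 other TOP mRNAs, 9 rose, SNHG8 was not called and VIM fell, with a median of 0.25. GAS5, a noncoding host of snoRNAs, rose most, from 226 CPM (SD 0.638, n = 3) to 314 CPM (SD 2.998, n = 3), or by 0.47 (SE 0.04). Of 78 mitochondrial ribosomal protein genes, 31 rose, 12 fell and 35 were not called, with a median of 0.09, and the largest change was that of MRPL46 (0.72, SE 0.16). These counts stand against 27.6% of all genes called higher and 28.4% called lower.

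Genes that act on ribosomal protein genes or mRNAs did not share a direction. Of 17 regulators of TOP mRNAs and of mTORC1, 8 rose (47.1%, against 27.6% of all genes tested) and 2 fell (against 28.4%), with a median of 0.08. SESN2, an inhibitor of mTORC1, rose most, by 0.76 (SE 0.08), and RHEB, its activator, fell by 0.49 (SE 0.04). LARP1 fell by 0.10 (SE 0.03). Of 8 transcription factors known to act at ribosomal protein genes, 2 rose (25%, near the 27.6% of all genes) and 3 fell (against 28.4% of all genes). Among the latter, MYC fell from 184 CPM (SD 10.8, n = 3) to 73.4 CPM (SD 0.442, n = 3), or by 1.33 on the log2 scale (SE 0.04). Of 10 chaperones and import factors for ribosomal proteins, 6 rose (60%) and IPO5 fell. IPO7 rose most, by 0.47 (SE 0.03). The part of these genes in the changes of the members was not tested.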

How the data were processed

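RNA-Seq of BT549 cells was analysed from 6 libraries, grouped by the treatment given in the sample labels. The authors deposited raw counts per gene for 58735 genes, without normalization, and FPKM for each library, divided by gene length and library size, for 25015 genes. The methods of the study name STAR for mapping, and the submitters' processing notes name CASAVA, Bowtie 0.12.2, GRCh38 and hg38. The counting tool, the annotation and the use of strand are not given in the sources used here. Gene identifiers were matched to GENCODE 29 (Ensembl 94, GRCh38), and start windows to RefSeq. The deposited files held no comparisons by the authors, and 0 columns were left unused.

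The count test was edgeR 4.0.16 (R 4.3.3), after filterByExpr (at least 10 counts, total of at least 15; 13170 genes above 0 were removed), with TMM scaling, robust glmQLFit and glmQLFTest, and Benjamini-Hochberg adjustment over all genes tested with a threshold of 0.05. The standard error was the size of the log2 fold change divided by the square root of F. Libraries held 15289500 to 22981832 counts, and the common biological coefficient of variation was 0.0374. Replicates of a group were further apart than counting noise (chi-square per degree of freedom from 2.32 to 3.12). Ratios within a library were compared by exact permutation. The floor for a count of 0 was 3 counts, which covers counting error only. Alternatives were DESeq2 1.42.0, limma 3.58.1 on log2(FPKM + 1) and log2(FPKM + 0.1), other scalings and filters, counts summed with pseudogenes, a replicate block, and each library left out. The scripts were tested on simulated data.

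The members, lists and alternatives were chosen with earlier results of these data known. Roles and lists were written from general knowledge. Members were named by rule: changes of at least 0.5 on the log2 scale, the 5 largest increases and decreases, the 3 highest and 3 lowest FPKM, untested members, paralogs with their partners, the P stalk, the 5S ribonucleoprotein, MDM2 binding, RPSA, RPS6, RPS27A, RPS4X and RPS19, members whose call changed under an alternative, and the largest change of each list. The RPL39L ratio, the start windows and their thresholds, the genes of at least 100 CPM, the exon overlaps, the implied lengths and the comparison by snoRNA genes were chosen after the data were seen, and RPS26, EIF5A, SNHG8 and other list members were named after their values were seen. A few genes covered by the rule are not reported.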

Additional observations from a re-analysis of the deposited data

How the results depend on the processing

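The count of members called higher ranged from 71 to 76, the count called lower was 2 and the median log2 fold change ranged from 0.271 to 0.287 over the 12 alternatives that keep all libraries. With each library left out in turn, 72 to 75 members were called higher and 2 lower, the median ranged from 0.27 to 0.307, and the difference in the RPS27L to RPS27 ratio from -1.72 to -1.61. The rise in the members' share of counts was 1.15 percentage points, and 1.17 with coding counts as the denominator or with pseudogenes added. Across all genes tested, replicate letters did not pair the libraries (correlations of 0.042, -0.012 and -0.003). In RPS21 and RPS29, however, library A was the highest of both groups. With the letter as a replicate block, 76 members were called higher, 2 lower, with a median of 0.286, and RPS29 was called (0.17, adjusted p = 0.000123, edgeR). In that fit the change of RPS21 was 0.45 (adjusted p = 3.86e-20, edgeR), against adjusted p = 0.0281 without the block. Over 36 named members with a test, the alternatives gave 629 values with the same call, 18 that lost it, 1 that gained it and 0 of reversed direction. The cause was not tested. Low counts limit the comparison of RPS10, RPL17 and RPL36A, and the cause of their low counts was not tested. The paralogs RPL3L and RPL10L cannot be compared at this depth.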
